A study of Homo sapiens with 4 samples.

Results

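The subject is a set of 42 genes whose products build and feed the DNA replication fork. They include helicase subunits, polymerases, clamp and loader, fork protection factors, and chromatin assembly and maintenance methylation factors. Also included are origin recognition and firing factors and enzymes of deoxynucleotide supply. The members were chosen by gene name, for what their proteins do, with earlier results of these data known. The MCM helicase genes were left out, as were origin licensing genes other than ORC1 and ORC6. All 42 were found among the 58735 genes of the count table, and all 42 passed the expression filter that left 15721 genes for testing. RNA-seq counts came from SW1990, an established human pancreatic cancer cell line, after 24 h with gomisin G at 10 µM (2 libraries) or with vehicle (2 libraries), so the groups differ in treatment and share cell line, medium and time. Gomisin G is a plant lignan of Schisandra, and the series addresses its effect on growth and on the Hippo-YAP pathway. The vehicle is not named in the labels, and 1 cell line at a single dose and time limits how far the values reach.

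DNA is copied at forks that open when the loaded MCM ring is joined by CDC45 and the GINS complex. Primase with DNA polymerase alpha starts each strand, the clamp PCNA is loaded by replication factor C, and polymerases delta and epsilon extend the strands. Ribonucleotide reductase, thymidylate synthase and thymidine kinase supply deoxynucleotides, and many of these genes are transcribed at the start of S phase under E2F factors. Replication genes are therefore read as markers of cycling cells in tumour lines.

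Libraries held 15034663 and 15245770 counts with gomisin G and 14580848 and 14901526 counts with vehicle. At these depths 3 counts, the limit set by a count of 0, equal 0.197 to 0.206 CPM (counts scaled to a common library total, counting error only). That range uses the raw library totals, without the TMM scaling factors carried by the other CPM values. Every member lay far above it. Whether the paired libraries came from separate cultures is not stated, so p-values describe the spread between these libraries, which may be technical. The edgeR fit draws each gene's spread toward a trend over all tested genes, so a p-value does not rest on that gene's own spread alone. The epithelial label held: KRT8 reached 4790 and 3663 CPM with gomisin G and 6572 and 5332 CPM with vehicle, although the duct keratin gene KRT7 stayed between 0.875 and 2.07 CPM. Summed counts over 8 fibroblast markers were 216 and 287 with gomisin G and 168 and 209 with vehicle, with COL1A2, LUM and THY1 at 0 in all libraries. Within that list PDGFRB had 57 and 69 counts with gomisin G and 21 and 20 with vehicle, and COL1A1 had 67 and 116 counts with gomisin G and 46 and 53 with vehicle. Both were without overlap and not called by edgeR (adjusted p = 0.0548 and 0.189), DESeq2 gave PDGFRB an adjusted p of 0.0369, and their part in the results was not tested. The 6 immune markers summed to 84 and 74 with gomisin G and 73 and 93 with vehicle, with PTPRC and CD3E at 0.

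Replication fork and nucleotide supply transcripts were lower with gomisin G across nearly the whole set. Of the 42 genes, 41 had a negative log2 change (gomisin G minus vehicle), the median was -0.58 (66.7% of the vehicle level), and values ran from -1.18 for CLSPN to 0.08 for RPA3. Over all tested genes the median was 0.01, and 7744 of 15721 had a negative value. Because the members were chosen with earlier results of these data known, the shares given here describe the list and do not test it. Both gomisin G libraries lay below both vehicle libraries for 38 members (90.5%), against 27.3% of tested genes. A gene is called when its Benjamini-Hochberg adjusted p from edgeR's quasi-likelihood test over all tested genes is below 0.05. Of the members 6 fell by this rule (14.3%), namely WDHD1, ORC1, UHRF1, RFC3, PRIM1 and CHAF1A, where 0.903% of tested genes fell, and 0 rose, where 0.922% rose. An unadjusted p below 0.05 with a negative change was found for 33 members (78.6%) and for 9.62% of tested genes. DESeq2 called 17 members lower (40.5%), the 6 among them, and 2.75% of tested genes, and it called 0 members higher. The others it called lower were CDC45, POLD3, POLA1, POLE, RFC1, CLSPN, RRM1, RRM2, DNMT1, CDC7 and ORC6.

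The number of calls turned on single libraries. With vehicle replicate 1 left out edgeR called 1 member lower (CLSPN), and with vehicle replicate 2 left out it called 0. In these fits 0.579% and 0.426% of all tested genes were called lower. It called 40 members lower with gomisin G replicate 1 left out, where 9.19% of all tested genes were lower, and 32 with gomisin G replicate 2 left out, where 21.1% were. The median log2 change moved less than the calls did, from -0.69 to -0.49 over these fits. In bulk RNA a smaller share of cells in S phase and less of each transcript per cell cannot be told apart.

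**Figure D1:**
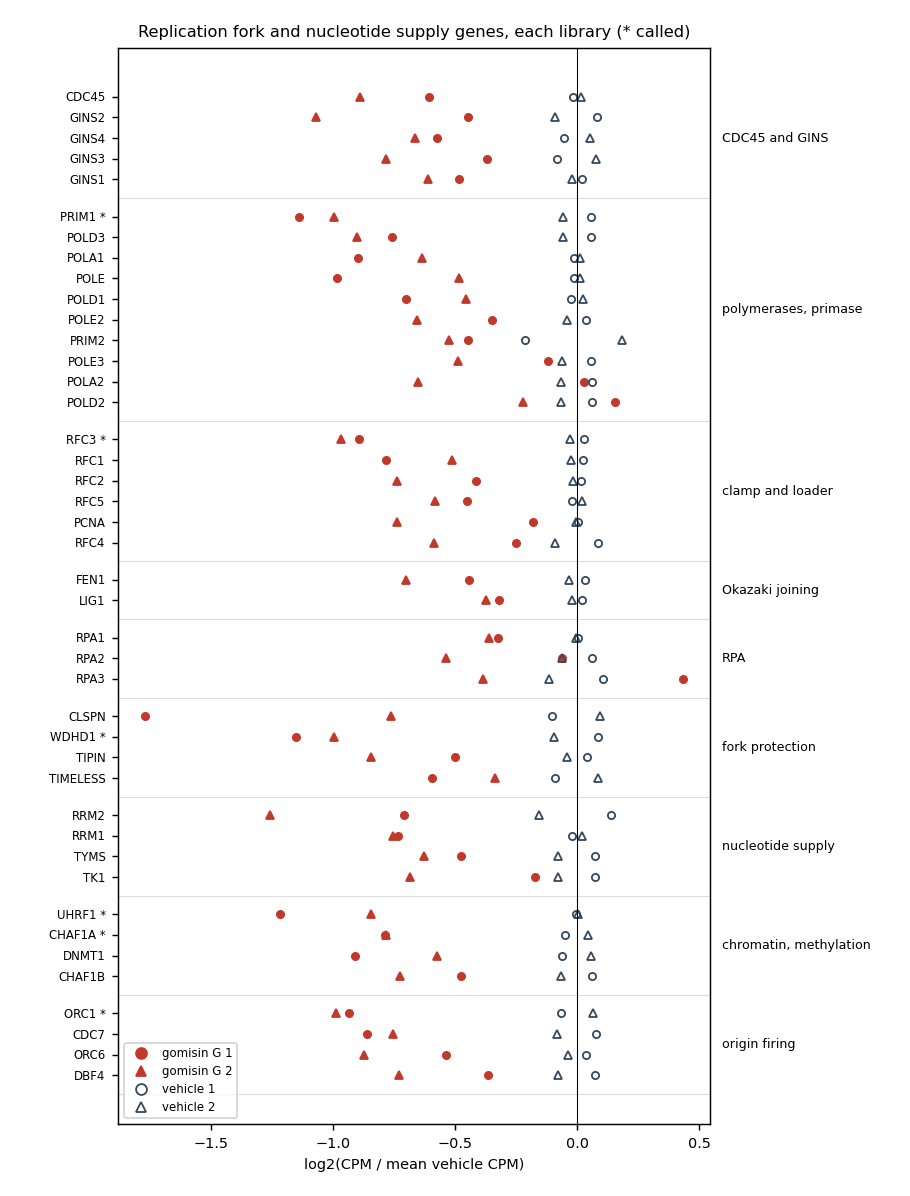
Log2 ratio of CPM to the mean vehicle CPM (x axis) for each of the 42 genes (rows, grouped by role) in both gomisin G libraries (filled red) and both vehicle libraries (open blue); circles are replicate 1, triangles replicate 2, and asterisks mark called genes. In 38 genes both red symbols lie left of both open symbols, and CLSPN, RPA3 and POLA2 show wide gaps between the red symbols.

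CDC45 and the GINS subunits, which activate the MCM helicase, had similar values. All 5 had negative log2 changes between -0.74 and -0.54, and all 5 were without overlap between the groups. EdgeR called 0 of them (5 had an unadjusted p below 0.05, and DESeq2 called 1, CDC45). Of all tested genes, 27.3% were lower without overlap and 9.62% were lower with an unadjusted p below 0.05. EdgeR called 0.903% of tested genes lower, and DESeq2 2.75%. CDC45 measured 29.5 and 24.2 CPM with gomisin G and 44.4 and 45.4 CPM with vehicle (log2 change -0.74, SE 0.17, adjusted p = 0.0744). GINS4 measured 19.9 and 18.7 CPM with gomisin G and 28.5 and 30.7 CPM with vehicle (log2 change -0.62, SE 0.17, adjusted p = 0.102). For both genes the libraries of a group lay closer to each other than to the other group. The remaining subunits had log2 changes of -0.72 (GINS2), -0.56 (GINS3) and -0.54 (GINS1), and in all 5 genes gomisin G replicate 2 was the lower library. Per length the subunits were unequal: in TPM, which also divides by gene length (mean ± SD, n = 2), GINS1 stood at 37.9 ± 3.10 with gomisin G and 60.2 ± 1.32 with vehicle, and GINS3 at 8.997 ± 0.514 with gomisin G and 14.59 ± 1.10 with vehicle.

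Among 10 polymerase and primase genes, the primase pair and the polymerase alpha pair split. PRIM1, the catalytic primase subunit (chromosome 12, 56731596 to 56752373, GRCh38), fell to 7.25 and 8.02 CPM with gomisin G, against 16.6 and 15.3 CPM with vehicle (log2 change -1.06, SE 0.20, adjusted p = 0.0446). Its groups were well apart, but the call was lost with upper-quartile factors (adjusted p = 0.0527). PRIM2, the accessory primase subunit, differed by -0.49 on the log2 scale (SE 0.20, adjusted p = 0.217). POLA1, the catalytic subunit of polymerase alpha, had -0.76 (adjusted p = 0.0634), whereas its partner POLA2 had -0.27 (adjusted p = 0.551) and overlapped, at 18.4 and 11.5 CPM with gomisin G and 18.8 and 17.2 CPM with vehicle. The differences within these pairs were not tested.

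The polymerase delta subunits also spread widely. POLD3, an accessory subunit, measured 33.7 and 30.5 CPM with gomisin G and 59.2 and 54.6 CPM with vehicle, just outside the threshold (log2 change -0.83, SE 0.16, adjusted p = 0.0509). The catalytic subunit gene POLD1 had a log2 change of -0.57 (adjusted p = 0.108). POLD2, which links the other delta subunits, showed almost no difference, at 204.8 and 157.8 CPM with gomisin G and 191.9 and 175.9 CPM with vehicle (log2 change -0.02, SE 0.18, adjusted p = 0.962). Its sign changed with upper-quartile factors (0.041). For polymerase epsilon, the catalytic gene POLE had -0.71 (adjusted p = 0.101), POLE2 -0.49 (adjusted p = 0.221) and POLE3, a histone-fold subunit also found in chromatin remodelling complexes, -0.29 (adjusted p = 0.381).

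In the clamp and its loader, RFC3 stood out. RFC3 (chromosome 13, 33818049 to 33966558) fell to 24.0 and 22.9 CPM with gomisin G, against 45.5 and 43.7 CPM with vehicle (log2 change -0.93, SE 0.16, adjusted p = 0.0363). The large subunit gene RFC1 measured 70.5 and 85.2 CPM with gomisin G and 123.4 and 119.4 CPM with vehicle (log2 change -0.64, SE 0.16, adjusted p = 0.0882). Both genes showed groups without overlap, as did the other 4 genes, where 27.3% of all tested genes were lower without overlap. RFC2, RFC5 and RFC4 had log2 changes of -0.57, -0.51 and -0.41, so 1 of 5 loader subunits was called, where 0.903% of tested genes fell. PCNA, the sliding clamp and the most abundant member per length, measured 302.5 and 205.7 CPM with gomisin G and 343.6 and 341.5 CPM with vehicle (log2 change -0.43, SE 0.21, adjusted p = 0.286). Its gomisin G libraries differed from each other by more than replicate 1 differed from vehicle.

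FEN1 and LIG1 trim and seal Okazaki fragments on the lagging strand. FEN1 measured 110.7 and 92.8 CPM with gomisin G and 153.8 and 147.3 CPM with vehicle (log2 change -0.57, SE 0.16, adjusted p = 0.112). LIG1, the replicative ligase, measured 103.8 and 100.2 CPM with gomisin G and 131.3 and 128.0 CPM with vehicle (log2 change -0.35, SE 0.15, adjusted p = 0.240). Neither overlapped between groups, where 27.3% of tested genes were lower without overlap, and neither passed the test.

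The 3 subunits of RPA, the single-strand binding complex, had the smallest changes of the role groups, with a median of -0.28. RPA1 measured 161.4 and 157.6 CPM with gomisin G and 202.8 and 201.6 CPM with vehicle (log2 change -0.34, SE 0.15, adjusted p = 0.245). RPA2 measured 58.4 and 41.98 CPM with gomisin G and 63.5 and 58.3 CPM with vehicle (log2 change -0.28, SE 0.20, adjusted p = 0.446). RPA1 was without overlap and RPA2 overlapped. RPA3, the smallest subunit, had 47.0 and 26.6 CPM with gomisin G and 37.5 and 32.1 CPM with vehicle, so its gomisin G libraries lay on either side of vehicle (log2 change 0.08, SE 0.26, adjusted p = 0.890). Its value was -0.38 with gomisin G replicate 1 left out, and 0.43 (adjusted p = 0.00907) with replicate 2 left out.

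Fork protection genes had the lowest median of the role groups, -0.87. That rank did not hold in gomisin G replicate 2 alone. There their median log2 ratio to vehicle was -0.80, and that of the origin firing genes was -0.81. WDHD1, which encodes AND-1 and couples polymerase alpha to the helicase (chromosome 14, 54938950 to 55027105), fell to 26.9 and 30.0 CPM with gomisin G, against 63.5 and 56.0 CPM with vehicle (log2 change -1.07, SE 0.17, adjusted p = 0.0280). That is 47.6% of the vehicle level and the lowest adjusted p of the 42 genes. CLSPN, which encodes claspin, a mediator of fork speed and of CHK1 activation, measured 19.7 and 39.5 CPM with gomisin G and 62.5 and 71.6 CPM with vehicle. Its groups did not overlap, where 27.3% of all tested genes were lower without overlap. Its log2 change was the most negative of the set (-1.18, SE 0.30). Yet its gomisin G libraries differed by 1.0 on the log2 scale (replicate 1 the lower). EdgeR did not call CLSPN (adjusted p = 0.0858), whereas DESeq2 did (adjusted p = 0.00258). TIPIN and TIMELESS, the partners of the fork protection complex, had -0.66 (adjusted p = 0.122) and -0.46 (adjusted p = 0.182).

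**Figure D2:**
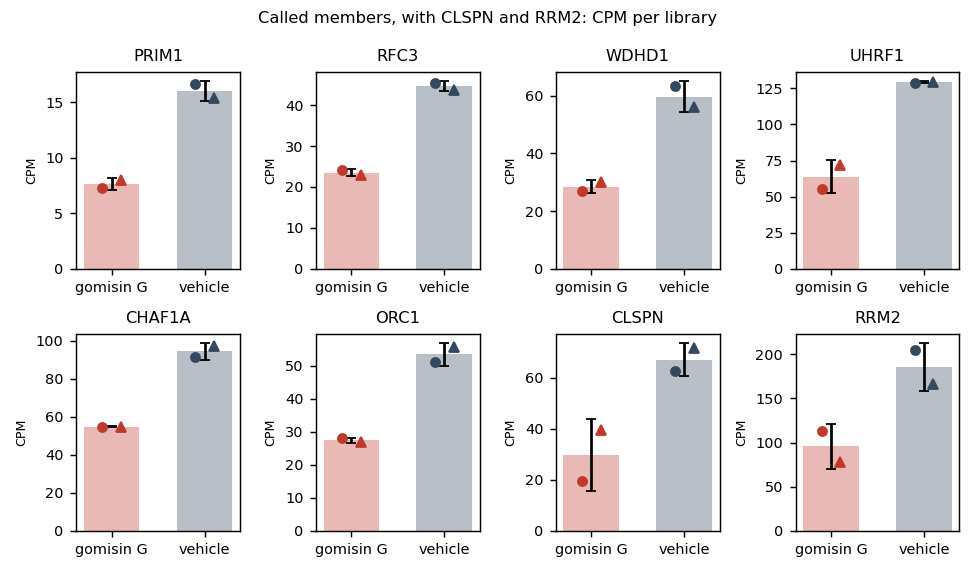
CPM (y axis, from 0) of the 6 called genes and of CLSPN and RRM2 with gomisin G (red, left) and vehicle (grey, right); bars are means, error bars SD of 2 libraries, circles replicate 1 and triangles replicate 2. In CHAF1A, ORC1, RFC3 and PRIM1 the gomisin G libraries nearly coincide, whereas those of CLSPN and RRM2 are apart.

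Deoxynucleotide supply genes had a median log2 change of -0.65, with 0 of 4 called by edgeR. Of the 4, 3 had an unadjusted p below 0.05, and DESeq2 called RRM1 and RRM2. Of all tested genes, 9.62% were lower with an unadjusted p below 0.05, and DESeq2 called 2.75% lower. RRM1, the large subunit of ribonucleotide reductase, measured 162.7 and 160.3 CPM with gomisin G and 266.3 and 274.0 CPM with vehicle (log2 change -0.74, SE 0.15, adjusted p = 0.0548). RRM2, the small subunit that cycles with S phase, measured 113.6 and 77.7 CPM with gomisin G and 204.7 and 166.7 CPM with vehicle (log2 change -0.96, SE 0.22, adjusted p = 0.0672). RRM1 was tight within groups, while RRM2 varied within both and had the more negative value. TYMS, thymidylate synthase, differed by -0.55 on the log2 scale (SE 0.16, adjusted p = 0.113), and TK1, the cytosolic thymidine kinase, one of -0.41 (SE 0.20, adjusted p = 0.301). TYMS overlaps the antisense genes ENOSF1 and TYMSOS, whose reads cannot be told apart from its own where the strand setting is unknown.

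Chromatin assembly and methylation genes held 2 of the 6 calls, where edgeR called 0.903% of all tested genes lower. UHRF1, which brings the maintenance methylase to newly copied DNA (chromosome 19, 4903080 to 4962154), fell to 55.6 and 72.1 CPM with gomisin G, against 128.9 and 129.7 CPM with vehicle (log2 change -1.02, SE 0.18, adjusted p = 0.0363). CHAF1A, the large subunit of chromatin assembly factor CAF-1 (chromosome 19, 4402662 to 4445018), fell to 54.8 and 54.9 CPM with gomisin G, against 91.4 and 97.5 CPM with vehicle (log2 change -0.78, SE 0.15, adjusted p = 0.0494). The gomisin G libraries of CHAF1A were nearly equal, but its call was marginal and was lost with limma voom (adjusted p = 0.0502), the legacy fit (0.0525), RLE factors (0.0532), upper-quartile factors (0.0583) and no expression filter (0.0587). DNMT1, the maintenance methylase itself, differed by -0.73 on the log2 scale (SE 0.18, adjusted p = 0.0828), and the CAF-1 subunit gene CHAF1B one of -0.60 (SE 0.17, adjusted p = 0.111).

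Of the origin genes ORC1 was called. ORC1, the cell-cycle-regulated subunit of the origin recognition complex (chromosome 1, 52372829 to 52404459), fell to 28.0 and 27.0 CPM with gomisin G, against 51.0 and 55.9 CPM with vehicle (log2 change -0.96, SE 0.16, adjusted p = 0.0328). CDC7, the kinase that fires licensed origins, measured 33.2 and 35.7 CPM with gomisin G and 63.5 and 56.8 CPM with vehicle (log2 change -0.80, SE 0.16, adjusted p = 0.0548). Both were compact within groups. ORC6, another subunit of the complex, had -0.69 (adjusted p = 0.0860), and DBF4, the activator of CDC7, -0.54 (adjusted p = 0.164).

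All 6 calls were lost when either vehicle library was left out, with log2 changes that stayed between -1.15 and -0.73. Adjusted p-values without vehicle replicates 1 and 2 were 0.171 and 0.0639 for WDHD1, 0.133 and 0.264 for ORC1, 0.133 and 0.144 for UHRF1, 0.259 and 0.208 for RFC3, 0.261 and 0.156 for PRIM1, and 0.312 and 0.480 for CHAF1A.

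Levels per length spanned a wide range. With gomisin G the members ran from 7.79 TPM (POLA2) through a median of 34.6 to 518 TPM (PCNA), and with vehicle from 10.4 TPM (POLA2) through a median of 58.0 to 772 TPM (PCNA). TK1 followed PCNA at 364.7 ± 38.9 TPM with gomisin G and 533.2 ± 41.5 TPM with vehicle, then TYMS at 160.4 ± 11.4 TPM with gomisin G and 255.8 ± 19.9 TPM with vehicle (mean ± SD, n = 2 each). TPM values carry no TMM factor, so their ratios can differ from the log2 changes above.

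**Figure D3:**
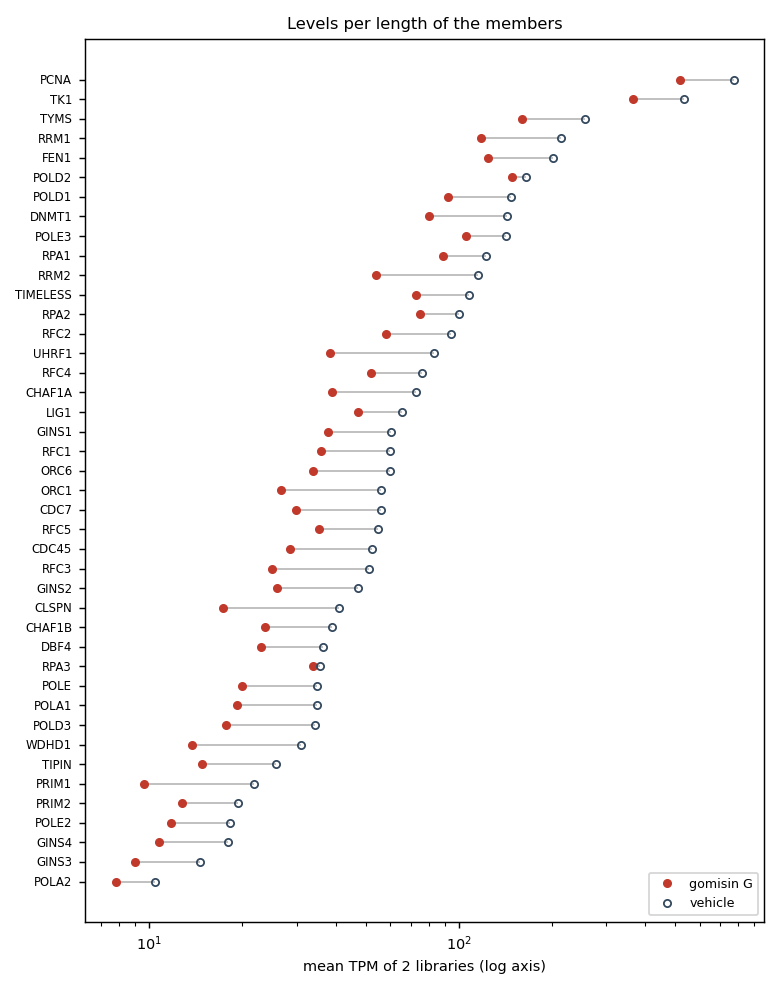
Mean TPM of 2 libraries (x axis, log scale) for each member, with gomisin G in red and vehicle as open circles, ordered by the vehicle level. PCNA is highest in both groups (518 and 772 TPM) and POLA2 lowest (7.79 and 10.4 TPM); the gaps of POLD2 and RPA3 are the narrowest.

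Promoter windows of the members were read for letters that E2F factors are known to bind. RefSeq promoter windows (GRCh38.p14, 250 bases before to 50 after a transcript start) were matched by symbol for 38 of the 42 members, in 51 windows; RPA2, RPA3, POLD3 and GINS4 had no entry matched. The E2F words searched, on both strands, were TTTCCCGC and TTTCGCGC and TTTGCCGC and TTTGGCGC. At least 1 such word stood in 17 of 51 member windows (33.3%), in 4.82% of the 15323 windows of tested genes and in 3.31% of the 35116 windows of the whole table. By gene that was 16 of 38 members (42.1%) and 6.57% of the 10555 tested genes with a window. The 16 were CDC7, CLSPN, DNMT1, GINS1, GINS2, GINS3, LIG1, PCNA, POLA1, POLA2, POLE, POLE2, RFC3, TIPIN, TYMS and UHRF1.

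Members with and without a word overlapped in their changes. The median log2 change was -0.69 with a word (16 genes, 2 called) and -0.57 without (22 genes, 4 called), and the ranges overlapped, from -1.18 to -0.27 with a word and from -1.07 to -0.02 without. EdgeR called 0.903% of all tested genes lower, and the 2 classes were not tested against each other. CCAAT, the letters of the NF-Y box, stood in 49.0% of member windows and 34.2% of windows of tested genes, and the cell cycle homology words TTTGAA and TTCGAA in 5.88% of member windows and 11.8% of windows of tested genes. These are letter matches, not measured binding, and the absence of a word says only that those letters are not in the window.

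Windows are printed for the 2 called members with a word (UHRF1, RFC3), for the member with the most negative change (CLSPN), for a member with a word and a small change (POLA2), and for the called member with the lowest adjusted p, which has none (WDHD1). Capitals mark the E2F word, read on the opposite strand in UHRF1, RFC3 and CLSPN, and each window is given 5′ to 3′ on the gene's strand. The positions are chr19:4909251-4909550 (plus strand) for UHRF1, the first of its 3 windows, chr13:33817899-33818198 (plus strand) for RFC3, chr1:35769929-35770228 (minus strand) for CLSPN, chr11:65261712-65262011 (plus strand) for POLA2 and chr14:55027050-55027349 (minus strand) for WDHD1. The word begins 14 bases before the transcript start in UHRF1, 55 before it in RFC3, 5 before it in CLSPN and 53 before it in POLA2.
UHRF1: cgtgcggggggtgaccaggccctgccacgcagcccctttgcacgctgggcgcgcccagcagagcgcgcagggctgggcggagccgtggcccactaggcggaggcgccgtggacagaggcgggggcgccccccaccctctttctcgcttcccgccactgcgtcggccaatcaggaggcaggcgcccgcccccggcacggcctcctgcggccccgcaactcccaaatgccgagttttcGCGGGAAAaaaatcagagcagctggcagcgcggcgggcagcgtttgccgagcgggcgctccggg
RFC3: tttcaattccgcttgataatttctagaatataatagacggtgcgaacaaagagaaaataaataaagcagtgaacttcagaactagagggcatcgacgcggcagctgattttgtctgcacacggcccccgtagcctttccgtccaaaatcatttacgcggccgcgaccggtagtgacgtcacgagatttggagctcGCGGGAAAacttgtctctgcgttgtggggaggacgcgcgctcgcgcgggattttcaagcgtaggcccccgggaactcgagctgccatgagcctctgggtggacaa
CLSPN: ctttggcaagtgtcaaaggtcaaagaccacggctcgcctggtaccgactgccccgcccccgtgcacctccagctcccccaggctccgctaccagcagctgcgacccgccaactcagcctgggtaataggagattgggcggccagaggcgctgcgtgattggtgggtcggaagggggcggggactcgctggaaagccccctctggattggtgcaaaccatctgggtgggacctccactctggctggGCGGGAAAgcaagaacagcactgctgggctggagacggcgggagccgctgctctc
POLA2: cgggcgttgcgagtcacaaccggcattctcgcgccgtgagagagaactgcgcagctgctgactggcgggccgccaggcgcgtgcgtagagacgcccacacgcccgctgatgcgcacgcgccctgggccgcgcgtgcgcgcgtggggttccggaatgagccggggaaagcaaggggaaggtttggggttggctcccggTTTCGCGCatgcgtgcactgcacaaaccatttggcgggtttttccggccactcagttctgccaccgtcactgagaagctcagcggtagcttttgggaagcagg
WDHD1: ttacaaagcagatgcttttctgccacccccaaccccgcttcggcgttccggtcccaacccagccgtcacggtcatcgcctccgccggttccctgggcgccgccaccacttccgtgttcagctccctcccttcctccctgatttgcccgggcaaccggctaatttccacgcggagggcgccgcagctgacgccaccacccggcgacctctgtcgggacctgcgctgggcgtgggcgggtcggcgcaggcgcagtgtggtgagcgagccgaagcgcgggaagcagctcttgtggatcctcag

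Other genes of the same pathway were set beside the members. They were listed for what they are known to do, with earlier results of these data known. Of all tested genes, edgeR called 0.903% lower and 0.922% higher. Of 15 licensing genes 7 fell and 0 rose by edgeR, with a median log2 change of -0.65, and MCM10, which helps CDC45 join the helicase, had -1.26 (SE 0.16, adjusted p = 0.0179), CDC6, a loader of the MCM ring, -0.93 (adjusted p = 0.0313), and the ring subunits MCM6 and MCM4 -0.89 and -0.90 (adjusted p = 0.0343 and 0.0386). Of 29 further fork genes 6 fell and 0 rose, with a median of -0.48, led by the clamp unloader gene ATAD5 (-1.21, adjusted p = 0.0233), the nuclease genes DNA2 (-1.04, adjusted p = 0.0275) and EXO1 (-1.14, adjusted p = 0.0297), and MMS22L (-1.003, adjusted p = 0.0315), which acts with TONSL at stalled forks. Leaving out vehicle replicates 1 and 2 in turn ended the calls of CDC6 (adjusted p = 0.199 and 0.242), MCM6 (0.246 and 0.308), MCM4 (0.340 and 0.358), DNA2 (0.131 and 0.123) and MMS22L (0.0807 and 0.258), and leaving out vehicle replicate 2 that of EXO1 (0.0972). The call of MCM4 was also lost with upper-quartile factors (0.0520), and that of MMS22L with the length trend removed (log2 change -0.67, adjusted p = 0.0879). POLD4, a small polymerase delta subunit chosen after its value was seen, had the highest value among the 29 (log2 change 1.01, SE 0.23, adjusted p = 0.0689). It measured 9.95 and 9.09 CPM with gomisin G and 4.41 and 5.05 CPM with vehicle. POLD4 overlaps RAD9A and AP003419.2 on the opposite strand, whose reads cannot be told apart from its own where the strand setting is unknown.

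The wider nucleotide metabolism list differed from the 4 supply members in its values. Of 28 genes 0 were called by edgeR (8 lower and 1 higher had an unadjusted p below 0.05, and DESeq2 called 4 lower), and the median was -0.21. At that unadjusted p 9.62% of all tested genes were lower and 1719 of 15721 were higher, and DESeq2 called 2.75% lower. The genes named from this list were the CTP synthase gene CTPS1 (-0.67, adjusted p = 0.0762), the purine synthesis gene PPAT (-0.69, adjusted p = 0.0779) and the folate enzyme gene MTHFD1 (-0.55, adjusted p = 0.107). No test compared the lists with each other.

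Genes that control entry into S phase were set beside the members without a test between the lists. Of 16 such genes 4 fell and 0 rose, where 0.903% of tested genes fell and 0.922% rose, and the median of the 16 was -0.65. The E2F repressor genes E2F8 (-1.44, adjusted p = 0.0193) and E2F7 (-1.23, adjusted p = 0.0280) fell. So did the cyclin D1 gene CCND1 (-1.22, adjusted p = 0.0230) and the phosphatase gene CDC25A (-1.02, adjusted p = 0.0357). The activator gene E2F1 measured 43.6 and 37.1 CPM with gomisin G and 77.7 and 69.0 CPM with vehicle (log2 change -0.86, adjusted p = 0.0509), and the cyclin E gene CCNE2 had -1.01 (adjusted p = 0.0796). The CDK inhibitor gene CDKN1A had 0.09 (adjusted p = 0.806), with a sign that changed with the length trend removed (-0.03). Another CDK inhibitor gene, CDKN1B, named after its value was seen, had 115.2 and 118.7 CPM with gomisin G and 89.1 and 83.4 CPM with vehicle (log2 change 0.44, SE 0.15, adjusted p = 0.162), without overlap. Of 30 G2/M and mitosis genes 0 were called by edgeR (17 lower had an unadjusted p below 0.05, and DESeq2 called 9), with a median of -0.43. At that unadjusted p 9.62% of all tested genes were lower, and DESeq2 called 2.75% lower. The lowest p of the 30 were those of ECT2 (-0.77), BUB1B (-0.78), ANLN (-0.80) and BUB1 (-0.63), with adjusted p from 0.0550 to 0.0765. The proliferation genes TOP2A and MKI67 had -0.74 (adjusted p = 0.0786) and -0.80 (adjusted p = 0.118). Without vehicle replicates 1 and 2 the adjusted p was 0.0875 and 0.0972 for CCND1 and 0.231 and 0.0774 for CDC25A.

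**Figure D4:**
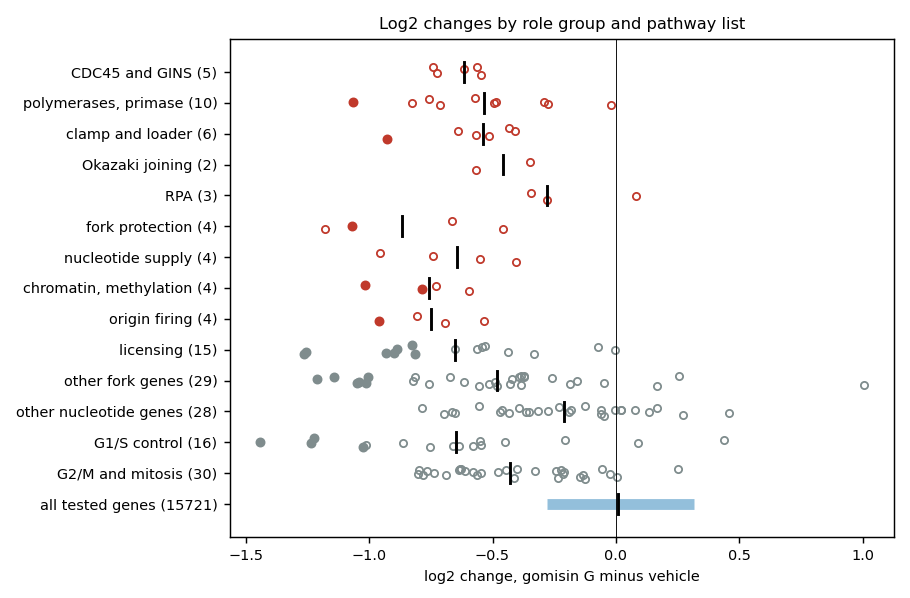
Log2 change, gomisin G minus vehicle (x axis), of each gene in the 9 role groups (red) and 5 other pathway lists (grey), with the number of genes in parentheses; filled points are called genes and black bars medians. The blue bar spans the middle quartiles of all 15721 tested genes around their median of 0.01, and the medians of all role groups lie to its left.

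Differences between libraries varied with gene length. Across the members the log2 difference between gomisin G replicates 1 and 2 had a Spearman correlation of -0.53 with gene length (42 genes of the same libraries), and -0.38 across all tested genes, given as a description. The same correlation for the vehicle pair was -0.28 over the members and -0.21 over all tested genes, and that of the log2 change itself with length was -0.22 and -0.29. The shortest 14 members (1471 to 3157 bases) had median log2 ratios to vehicle of -0.43 in replicate 1 and -0.72 in replicate 2, with replicate 1 the lower library in 1 gene. The longest 14 (5145 to 16609 bases) had -0.77 in replicate 1 and -0.64 in replicate 2, with replicate 1 the lower in 8 genes. Thus the long POLE and DNMT1 were lower in replicate 1 and the short PCNA and TK1 in replicate 2, while both libraries had negative medians in every length class. With the length trend removed from each library the median of the members was -0.63 and edgeR called 25 of them lower, where it called 2.87% of tested genes lower. The part of RNA quality in this difference was not tested.

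**Figure D5:**
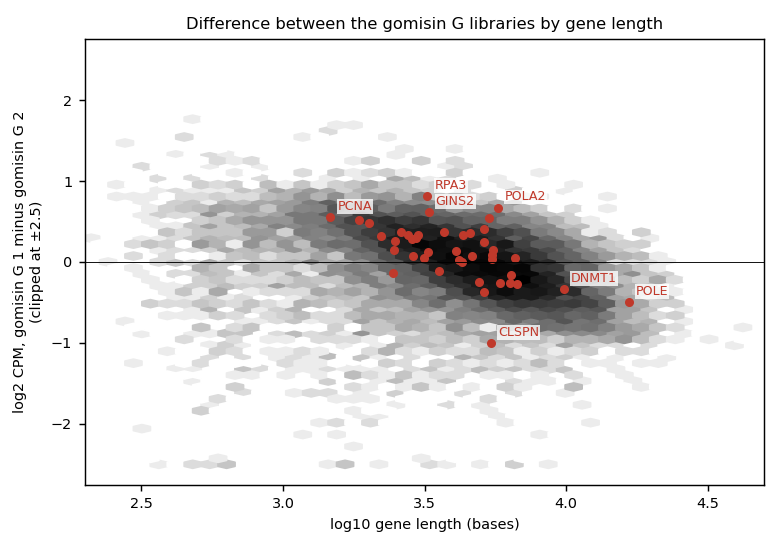
Difference in log2 CPM between gomisin G replicates 1 and 2 (y axis, clipped at ±2.5) against log10 gene length in bases (x axis); grey hexagons are all 15721 tested genes, darker where there are more, and red points the 42 members. PCNA, the shortest member, and RPA3 lie above 0 and long ones such as POLE and DNMT1 below, with CLSPN lowest at -1.0.

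Counting limits bear on some members. Of the 42, 19 overlap another annotated gene with at least 20 counts in all libraries together, 13 of them on the opposite strand, and neither the strand setting nor the handling of shared reads is given in the sources used here. PRIM1 overlaps HSD17B6 on the opposite strand and NACA on its own, and RFC3 overlaps AL161891.1 on its own strand. CHAF1A overlaps UBXN6 and RPA3 overlaps UMAD1, both on the opposite strand. Annotated pseudogenes named after 9 members took at most 0.396% as many counts as the member itself (DBF4), and 0.0120% for RRM2. How many reads were dropped for matching several places is not known.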

How the data were processed

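The authors deposited raw counts per gene (whole numbers, not normalized) for 4 SW1990 RNA-seq libraries, 2 with gomisin G and 2 with vehicle. Reads were handled with fastp, HISAT2 and featureCounts on build hg38, per the submitters' processing notes; versions, strand and multi-mapping settings are not given in the sources used here. Per the labels, RNA was depleted of ribosomal RNA. The sample tables and the whole table held the same counts (0 values differed). The deposited gene length column, another annotation value, was used for TPM, a unit computed here.

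Counts were tested with edgeR 4.0.16 in R 4.3.3 (expression filter by group, TMM factors, robust quasi-likelihood F test, 2 residual degrees of freedom), adjusted over all 15721 tested genes, after the scripts were tested on simulated data. CPM values use TMM factors; SE is the log2 change divided by the root of F. Members and gene lists were chosen with earlier results of these data known. Every member is named; full values go to called members and the 2 of lowest p in each role group, and from other lists to the 4 of lowest p plus TOP2A, MKI67, E2F1, CCNE2 and CDKN1A; some genes of the lists are not reported here. A chi-square comparison gave 37.2 per gene for the gomisin G pair and 6.98 for the vehicle pair, so neither pair is a library deposited again. Alternatives were RLE and upper-quartile factors, 2 other filters, DESeq2 1.42.0, limma voom 3.58.1, the legacy fit, a replicate block, removal of the length trend (lowess, span 0.3) and leaving out each library on the same tested genes.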

Additional observations from a re-analysis of the deposited data

How the results depend on the processing

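Under all 13 alternatives the median log2 change of the members stayed negative and within the spread between the gomisin G libraries, between -0.69 and -0.49. Both ends come from fits that leave out 1 gomisin G library. Such a fit returns about the median of the library kept (-0.69 for replicate 2, -0.49 for replicate 1), so for it that spread is no test. The number of members called lower stayed between 4 and 7 with RLE or upper-quartile factors, other filters, limma voom and the legacy fit. It was 17 with DESeq2 (883 genes called in all), 25 with the length trend removed (900 in all) and 30 with the replicate block (2886 in all), against 6 (287 in all); 6 of the 6 were among those called in each of these 3. With a library left out the members called lower ranged from 0 to 40 and those called higher from 0 to 1 (RPA3), with 141 to 6325 genes called in all; there the lone library is assumed to vary like the other group, whose pair gives the spread. The labels give the replicate numbers no meaning. Deviations of same-numbered libraries correlated at 0.21 over tested genes, with 2 pairs only, so the block is not read as pairing.

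Signs changed for 4 genes that were not called: POLD2 with upper-quartile factors (0.041), RPA3 and CDKN1A with the length trend removed (-0.034 and -0.030), and all 4 with a library left out, where POLA2 ranged from -0.65 to 0.028, POLD2 from -0.22 to 0.16, RPA3 from -0.38 to 0.43 and CDKN1A from -0.047 to 0.22. Upper-quartile factors moved the median of all tested genes to 0.07. The cause of these differences was not tested.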
